A study of Mus musculus with 8 samples.

Results

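Long non-coding RNAs were examined in the hippocampus of young adult and very old mice. The set comprised Neat1, Malat1, Meg3, Miat, Snhg11 and Pisd-ps1, and every array probe matched to 1 of these 6 genes was taken, whatever its value. The genes themselves were chosen with earlier results of these data known. Of the 6 genes, 5 had a probe, with 7 probes in all among the 39429 probes of the array, and Snhg11 had no matched probe. Annotation classes Neat1, Malat1, Meg3 and Miat as lncRNA genes and Pisd-ps1 as a transcribed pseudogene.

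Whole hippocampi had been dissected by hand from wild type C57BL/6J mice aged 3 months (3M, 4 samples) or 29 months (29M, 4 samples). All mice were untreated and kept in their home cage, and the old animals had been bought at an advanced age and then kept on site. Each sample was labelled with Cy3 and hybridised to 1 single-colour array. On it the brightness of a spot reports the abundance of the transcripts that its probe binds. Values are normalized log2 intensities, so a difference of 1 is a 2-fold change. The brightness of a spot also depends on its probe, so only changes of a probe between arrays, and no levels of different probes, were compared. The labels do not say whether each sample came from a separate animal, so the p-values measure the spread between these samples.

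Long non-coding RNAs act without being translated, and many stay in the nucleus. Neat1 is the scaffold of paraspeckles, nuclear bodies that hold RNA-binding proteins and edited RNAs. It exists as a short polyadenylated form and as a long form on which the body is built. Malat1, transcribed from the gene next to Neat1, is an abundant RNA of nuclear speckles, where splicing factors gather. Meg3 is expressed from the maternal copy of the imprinted Dlk1-Dio3 locus and is abundant in neurons, Miat (also called Gomafu) is a neuronal nuclear RNA that binds splicing factors, and Snhg11 hosts small nucleolar RNAs. Pisd-ps1 derives from Pisd, which encodes the mitochondrial enzyme that makes phosphatidylethanolamine from phosphatidylserine.

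The 8 arrays lay on 3 slides, each with both groups. Slide 1 held 3M replicate 1 and 29M replicates 3 and 4, and slide 2 held replicate 2 of each group. Slide 3 held 3M replicates 3 and 4 and 29M replicate 1. A change within a slide thus rests on a single array of 3M, of 29M or of both. Of the non-control spots, 76.2% to 85.0% were well above background per array and 0 were saturated, and any pair of arrays correlated at 0.992 to 0.998 over all probes. The 3M replicate 1 array had the lowest share and was the only one that the extraction software marked for evaluation. All 10 of 10 markers of hippocampal subfields were well above background on all 8 arrays, and 0 of them passed the test for a change with age. Among all tested probes the median change was 0.00, and 5% to 95% of them lay between -0.35 and 0.37 on the log2 scale.

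Neat1 and Pisd-ps1 were up-regulated at 29M, by 2.18-fold and 1.84-fold. Malat1, the 3 probes of Meg3 and the probe of Miat did not pass the test. A probe was called when its adjusted p in limma was under 0.1 and its log2 change was at least 0.5 in size. On this rule 2 of the 7 probes were called, both higher, where 1.96% of all 39408 tested probes were called in either direction, 1.21% higher and 0.751% lower. In 3 of the 7 probes all 4 arrays of 29M lay above all 4 of 3M, against 5.52% of all tested probes, while 5.55% had all of 29M below 3M. Because the genes were chosen with earlier results known, the shares over all probes are background only and give no test of the set. All 7 probes were well above background on all 8 arrays.

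**Figure D1:**
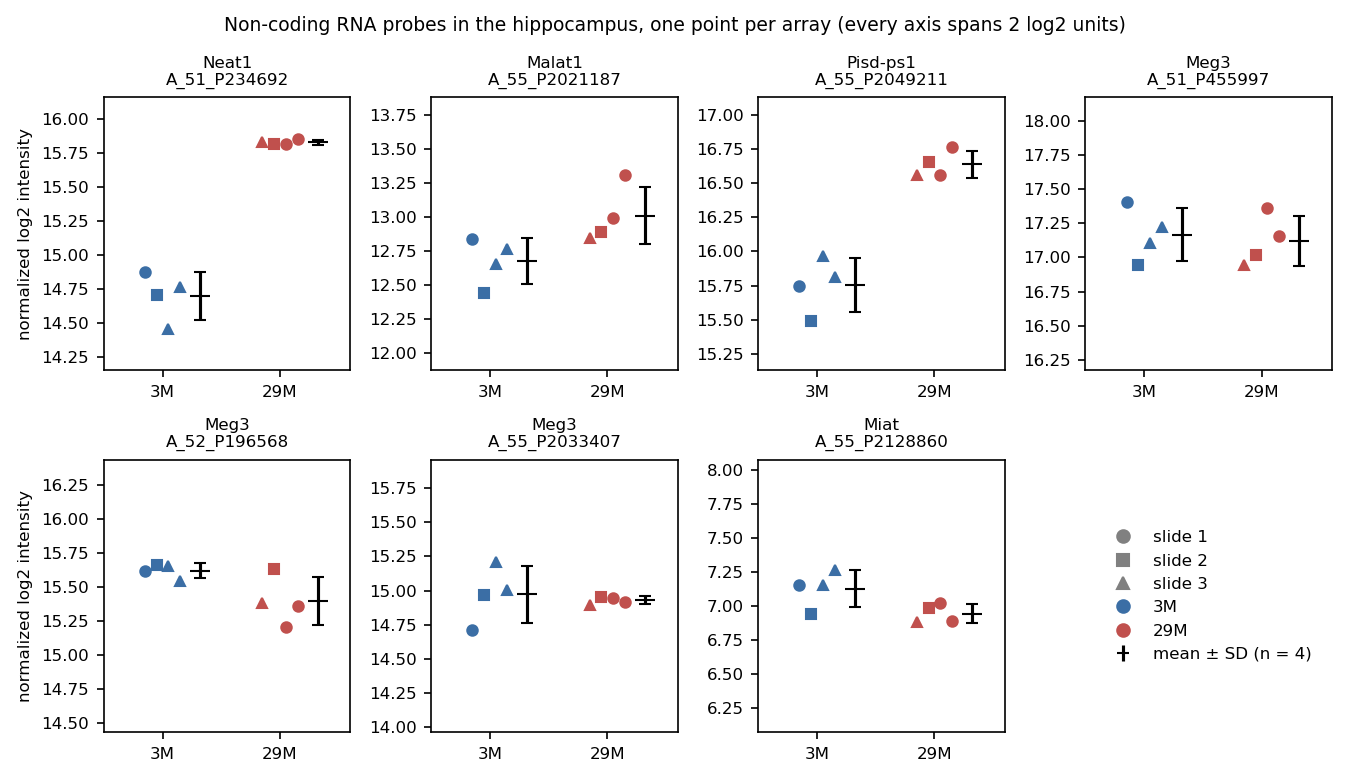
Normalized log2 intensity of each of the 7 probes on each array, by age group (3M blue, 29M red), with point shapes for the 3 slides and black bars for the mean ± SD of 4 arrays. Neat1 (14.70 against 15.83 on average) and Pisd-ps1 (15.76 against 16.64) separate widely, Malat1 barely, and the probes of Meg3 and Miat overlap.

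Neat1 was read by 1 probe (A_51_P234692). Its normalized log2 intensity was 14.87, 14.71, 14.46 and 14.77 in 3M replicates 1 to 4. In 29M replicates 1 to 4 it was 15.83, 15.81, 15.81 and 15.85. The groups were far apart, and the arrays of 29M lay much closer together than those of 3M. The means were 14.70 ± 0.18 (SD, n = 4) and 15.83 ± 0.02 (SD, n = 4), and the change was 1.12 with a standard error of 0.09 and a 95% confidence interval of 0.91 to 1.34. The adjusted p of this change in limma was 0.00184. Among all 39408 probes it ranked 10 by p-value and 87 by size of the rise. Before normalization the spot brightness ran from 23543.5 to 30154.5 scanner units in 3M and from 56384 to 61592 in 29M, over a local background of 27 to 41. Within slides 1, 2 and 3 the change was 0.96, 1.10 and 1.21. The files do not say which form of Neat1 the probe reads.

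The 277 genes of the lncRNA class with a matched and tested probe were ranked by change, each by its brightest probe. Neat1 had the largest rise among them, Malat1 ranked 14, Meg3 158 and Miat 225. Of these 277 genes 2 were called higher (0.722%) and 2 lower (0.722%), and their median change was -0.02. Among 121 transcribed pseudogenes with a matched probe, of which 4 were called higher (3.31%) and 0 lower, Pisd-ps1 ranked 3. Its relative Pisd-ps3 ranked 2.

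**Figure D2:**
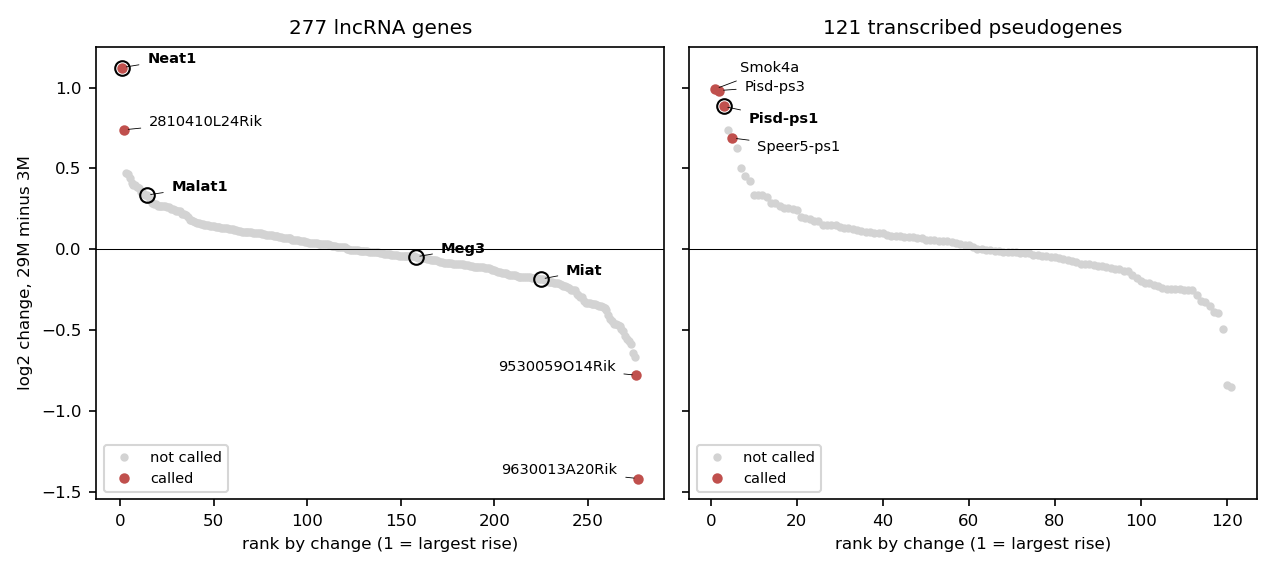
Log2 change from 3M to 29M (vertical axis) of 277 lncRNA genes (left) and 121 transcribed pseudogenes (right) with a matched probe. Genes are ordered by change, 1 point per gene by its brightest probe. Called genes are red and the genes described here are circled, with Neat1 first among the lncRNA genes (1.12) and Pisd-ps1 near the top among the pseudogenes (0.88).

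The genes of the proteins that build paraspeckles gave 1 call, and it was opposite in sign to Neat1. Of 18 listed paraspeckle genes, all on the array, 0 were called higher and 1 was called lower. Their median change was -0.10, beside 0.01 over all 19742 tested genes, of which 2.22% were called by their brightest probe, 1.56% higher and 0.664% lower. The called gene was Pspc1, which encodes paraspeckle component 1, 1 of the core proteins of the body. Its normalized log2 intensity was 13.08, 12.78, 12.66 and 12.68 in 3M and 11.91, 11.45, 12.30 and 11.54 in 29M. All 4 arrays of 29M lay below all of 3M, and they were more spread out. The change was -1.003 (SE 0.18, adjusted p = 0.0341 in limma). The other 17 genes had changes between -0.37 and 0.40 and did not pass the test. None of the 3 listed genes of the family of enzymes that edit adenosine to inosine in RNA was called. Their changes ran from -0.10 (Adar, adjusted p = 0.648 in limma) to 0.08 (Adarb2, 0.631).

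Some markers of microglia and T cells and 1 of astrocytes were called higher in the same samples as Neat1 and Pisd-ps1. Of 15 microglial markers 5 were called higher and 0 lower, namely C1qa (0.85), Ctss (0.82), Tyrobp (0.79), Trem2 (0.64) and C1qb (0.56), and the median change of the list was 0.37. The mean level over this list ran from 13.71 to 13.98 in 3M and from 14.01 to 14.30 in 29M. Of these microglial markers 13 had a change above 0, and the lowest was Fcrls (-0.25). Of 12 astrocyte markers 1, Gfap (0.71), was called higher. The astrocyte changes ran down to -0.39 (Slc4a4), 7 of 12 were above 0, and their median was 0.15. Mean levels of the astrocyte list were 13.94 to 14.17 in 3M and 14.10 to 14.20 in 29M. Of 6 T and B cell markers Cd3d (0.89) and Cd8a (0.65) were called higher, both on dim probes with 3M means of 6.44 and 6.37. Another T cell marker, Cd3e, was not called (0.07, adjusted p = 0.720 in limma), and its groups overlapped. The mean level over this list was 7.20 to 7.35 in 3M and 7.49 to 7.63 in 29M. The B cell marker Ms4a1 was well above background on 0 arrays of 3M and 2 of 29M. Among 16 neuronal markers 0 were called, their median change was -0.01, and their mean level was 15.63 to 15.80 in 3M and 15.67 to 15.72 in 29M. Their part in the changes of Neat1 and Pisd-ps1 was not tested. In whole tissue, more or fewer cells of a type and more or less RNA per cell cannot be told apart.

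Oligodendrocyte markers gave 0 calls of 12 by their brightest probe, with mean levels of 14.45 to 14.84 in 3M and 14.68 to 14.82 in 29M. For 1 of them, Ermn, a dimmer probe was called higher (0.75, adjusted p = 0.0424 in limma) while the brightest had -0.24 (0.281). Of 8 markers of their precursors 1 was called lower, Gpr17 (-0.99), while 4 had a change above 0 and the list median was 0.07. Markers of vessels (10), choroid plexus (8), meninges (7) and ependyma (6) and 3 of 4 of red blood cells had a matched probe, and 0 of these were called. The choroid plexus list had mean levels of 13.70 to 15.22 in 3M, a wider range than the 14.31 to 14.71 of 29M.

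Malat1 was read by 1 probe (A_55_P2021187). Its normalized log2 intensity was 12.84, 12.44, 12.66 and 12.76 in 3M and 12.84, 12.89, 12.99 and 13.31 in 29M. The lowest array of 29M lay just above the highest of 3M, so the groups touched without overlapping. The means were 12.67 ± 0.17 (SD, n = 4) and 13.01 ± 0.21 (SD, n = 4), a change of 0.34 (SE 0.12, 95% confidence interval 0.06 to 0.61) or 1.26-fold. The adjusted p was 0.213 in limma, so the rise did not pass the test. Within the 3 slides the change was 0.32, 0.45 and 0.14.

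The difference in change between the neighbours Neat1 and Malat1 was tested on each array's own difference of their log2 values. That difference rose by 0.79 from 3M to 29M, and all 4 arrays of 29M lay above all 4 of 3M. The two-sided exact permutation test gave p = 0.0286, the smallest that 70 regroupings allow, and 0.0571 after adjustment over the 4 pairs of genes tested. Of other genes near the pair on chromosome 19, Ltbp3 (0.19) and Slc25a45 (0.23) were not called. Frmd8, next to Neat1, had a change of 0.48 with all arrays of 29M above 3M (adjusted p = 0.0718 in limma), just under the required 0.5.

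The genes of proteins of nuclear speckles, the compartment of Malat1, gave 0 calls of 16, with a median change of 0.02. The extremes were Srsf2, a splicing factor of the SR family, at 0.34 (adjusted p = 0.556 in limma) and Acin1, a component of the exon junction machinery, at -0.30 (0.271).

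**Figure D3:**
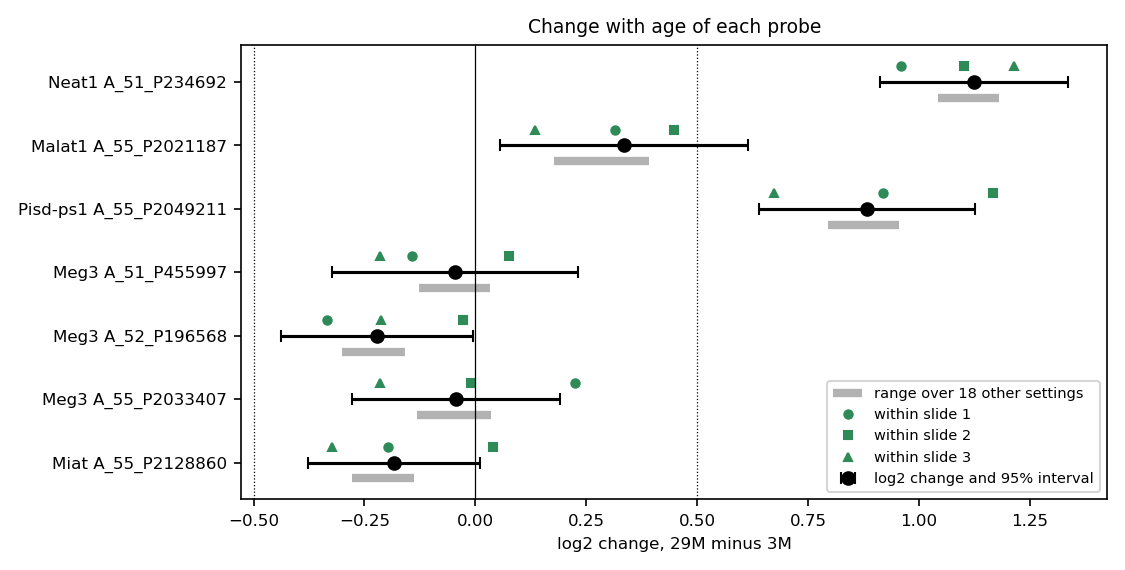
Log2 change from 3M to 29M (horizontal axis) of each of the 7 probes: black points with 95% confidence intervals, green shapes for the change within each slide, and grey bars for the range over 18 other settings of the analysis. The dotted lines mark the required change of 0.5. Neat1 (0.91 to 1.34) and Pisd-ps1 (0.64 to 1.13) lie wholly above it, Malat1 spans it, and the Meg3 and Miat probes stay near or below 0.

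The sequence around the transcription start of Malat1 is shown because Malat1 lies beside Neat1 and moved less. RefSeq (GRCm38.p6) places it at chr19:5802623-5802922 on the minus strand, from 250 bases before to 50 bases after the start. Neat1 and Pisd-ps1 had no entry.
Malat1: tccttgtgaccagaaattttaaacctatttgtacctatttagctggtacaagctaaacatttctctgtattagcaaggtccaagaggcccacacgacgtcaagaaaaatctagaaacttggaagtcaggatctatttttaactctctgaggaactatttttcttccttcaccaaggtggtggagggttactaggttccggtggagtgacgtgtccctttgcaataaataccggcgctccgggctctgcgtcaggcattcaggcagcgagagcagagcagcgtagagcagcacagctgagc
It holds 47.0% G and C and 10 CpG, against medians of 52.7% and 7 over all 32851 promoters of the same length. Of 6 motifs searched on both strands, 0 matched there. These were the STAT motif TTCNNNGAA (in 8.3% of all promoters), the IRF motif of GAAA and GAAA with NN between them (3.44%), the AP-1 motif TGANTCA (7.81%), the Sp motif GGGCGG (35.7%), the ETS motif CGGAAG (16.9%) and CCAAT (37.4%).

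Pisd-ps1 was read by 1 probe (A_55_P2049211). Its normalized log2 intensity was 15.75, 15.49, 15.97 and 15.81 in 3M. In 29M it was 16.56, 16.66, 16.56 and 16.77. Every array of 29M lay well above every array of 3M. The means were 15.76 ± 0.20 (SD, n = 4) and 16.64 ± 0.10 (SD, n = 4). The change was 0.88 (SE 0.11, 95% confidence interval 0.64 to 1.13) with an adjusted p of 0.00656 in limma, ranking 88 by p-value and 190 by size of the rise among all probes. Within the 3 slides it was 0.92, 1.17 and 0.67.

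The parent gene and a second pseudogene rose with it. Of 10 listed relatives of Pisd and genes of phosphatidylethanolamine synthesis, 2 were called higher and 0 lower, with a list median of -0.09. Pisd had normalized log2 intensities of 14.06, 13.88, 14.39 and 14.48 in 3M and 15.21, 14.82, 15.40 and 15.04 in 29M. The groups did not overlap, and the change was 0.92 (SE 0.16, adjusted p = 0.0292 in limma). Pisd-ps3 had values of 11.39, 11.17, 11.76 and 11.78 in 3M and 12.74, 12.46, 12.64 and 12.19 in 29M. Here too the groups stood apart, with a change of 0.98 (SE 0.17, adjusted p = 0.0245 in limma). Pisd-ps2, named after its value was seen, had a change of -0.09 (adjusted p = 0.745 in limma).

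The Pisd copies are close in sequence and the files hold no probe sequences, so signal from 1 copy on the probe of another cannot be told apart and the values of single copies are uncertain. The array-by-array difference between Pisd-ps1 and Pisd changed by -0.03 from 3M to 29M (two-sided exact permutation p = 0.914), and its arrays overlapped. The other 7 genes of the list, those of the neighbouring enzymatic steps, had changes between -0.24 and 0.00, and none was called.

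The genes nearest to Pisd-ps1 on chromosome 11 gave 1 call. Rn28s1, which encodes a ribosomal RNA present in many copies, was called lower (-0.78, SE 0.18, adjusted p = 0.0696 in limma). Sfi1 (-0.14) and Eif4enif1 (0.18) were not called.

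**Figure D4:**
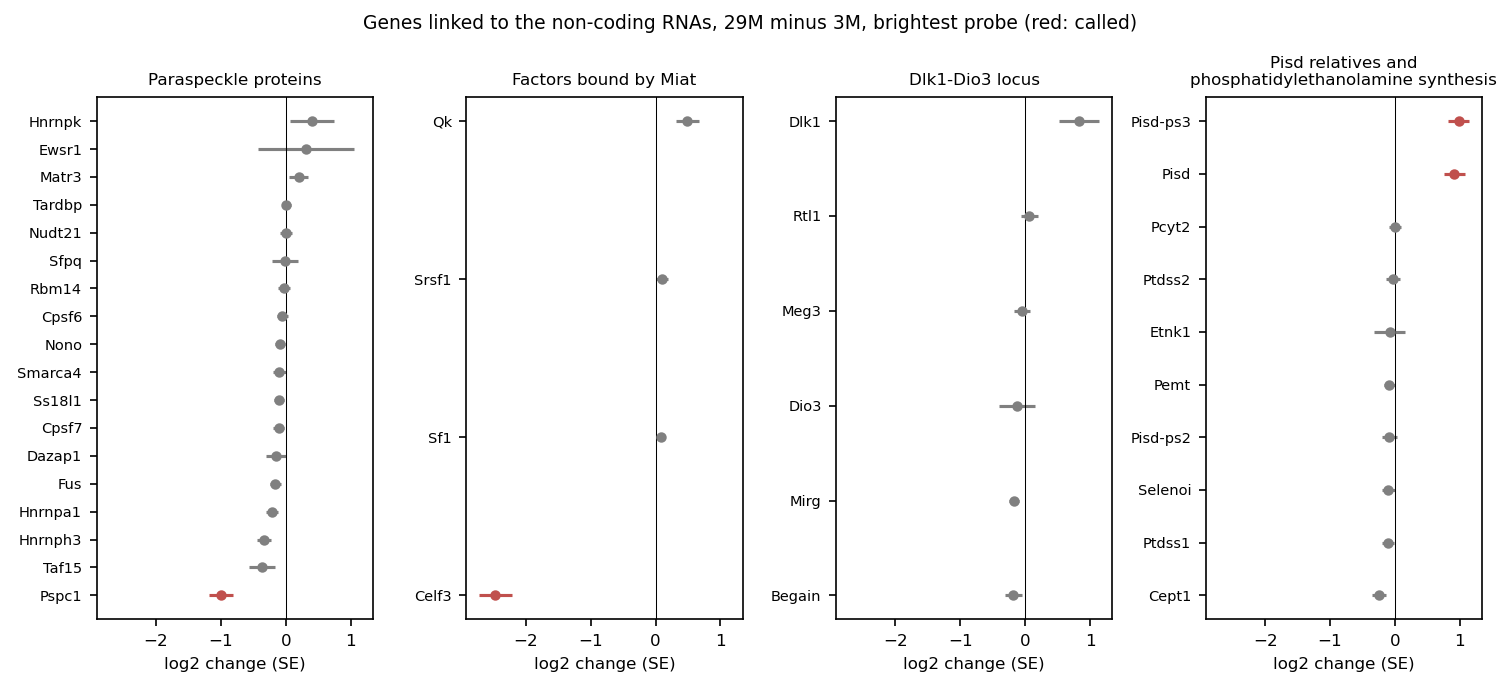
Log2 change from 3M to 29M with its standard error (horizontal axis) of the genes in 4 lists linked to Neat1, Miat, Meg3 and Pisd-ps1, 1 point per gene by its brightest probe, called genes in red. Called genes are Pspc1 (-1.003), Celf3 (-2.47), Pisd-ps3 (0.98) and Pisd (0.92), and the others had smaller changes or, as Dlk1 (0.83, SE 0.31), a wide error.

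Meg3 was read by 3 probes, which gave no called change. The brightest (A_51_P455997) had normalized log2 intensities of 17.40, 16.94, 17.10 and 17.22 in 3M and 16.95, 17.02, 17.37 and 17.16 in 29M. The groups covered the same range, and the change was -0.05 (SE 0.12, 95% confidence interval -0.32 to 0.23, adjusted p = 0.890 in limma). The second probe (A_52_P196568) had 15.62, 15.66, 15.65 and 15.54 in 3M and 15.38, 15.63, 15.21 and 15.36 in 29M. Here 3 of 4 arrays of 29M lay below all of 3M, and the change was -0.22 (SE 0.10, interval -0.44 to -0.01, adjusted p = 0.282 in limma). The third probe (A_55_P2033407) had 14.71, 14.97, 15.21 and 15.01 in 3M and 14.89, 14.96, 14.95 and 14.92 in 29M. The arrays of 29M fell inside the range of 3M, with a change of -0.04 (SE 0.10, adjusted p = 0.873 in limma). The brightest and the dimmest of them are listed under the same RefSeq transcript, and the remaining one under another.

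The change of the brightest Meg3 probe differed from that of the second by 0.18 (exact permutation p = 0.457, two-sided) and from that of the third by -0.0023 (p = 1, exact permutation), both unadjusted over 2 pairs. Within slides 1, 2 and 3 the brightest probe changed by -0.14, 0.08 and -0.22, the second by -0.33, -0.03 and -0.21, and the third by 0.23, -0.01 and -0.22. The signs of these probes other than the second thus varied among slides.

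No gene of the Dlk1-Dio3 locus was called. Of 7 listed genes, Meg3 included, 6 had a matched probe, and the median change of these 6 was -0.09. Dlk1, the paternally expressed gene at the end of the locus and a membrane protein related to Notch ligands, had the largest change (0.83, SE 0.31), but its groups overlapped and the adjusted p was 0.224 in limma. Begain, a gene of the postsynaptic density on the far side of Dlk1, had a change of -0.19 (adjusted p = 0.508 in limma). Mirg, another maternally expressed non-coding RNA of the locus, had a change of -0.17 (adjusted p = 0.302 in limma), and the difference between Meg3 and Mirg changed by 0.12 (two-sided exact permutation p = 0.257, and 0.343 over the 4 pairs). Downstream of Meg3, Rtl1, a retrotransposon-derived gene, had a change of 0.06 and was well above background on 3 arrays of each group. The next gene, 6430411K18Rik, had a change of -0.46 (adjusted p = 0.232 in limma).

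Both annotated starts of Meg3 are shown, since its probes are listed under different RefSeq transcripts. No probe was linked to either start. RefSeq (GRCm38.p6) places them at chr12:109540746-109541045 and chr12:109545148-109545447, both on the plus strand and both from 250 bases before to 50 after the start. Capitals mark a match to CCAAT.
Meg3, first start: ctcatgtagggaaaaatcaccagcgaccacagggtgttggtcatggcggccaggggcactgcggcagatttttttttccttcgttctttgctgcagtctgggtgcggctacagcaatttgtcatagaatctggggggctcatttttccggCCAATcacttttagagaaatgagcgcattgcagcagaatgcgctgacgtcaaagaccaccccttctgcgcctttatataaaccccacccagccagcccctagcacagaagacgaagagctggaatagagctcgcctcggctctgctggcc
Meg3, second start: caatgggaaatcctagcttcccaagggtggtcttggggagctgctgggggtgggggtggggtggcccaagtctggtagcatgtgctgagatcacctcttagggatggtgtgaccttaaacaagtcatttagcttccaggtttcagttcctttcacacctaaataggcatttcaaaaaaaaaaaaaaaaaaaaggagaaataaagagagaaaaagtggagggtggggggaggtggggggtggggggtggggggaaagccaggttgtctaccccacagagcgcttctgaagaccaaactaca
The first holds 53.7% G and C with 13 CpG and the CCAAT match at position -100 from the start. The second holds 50.3% with 1 CpG and none of the 6 motifs.

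The Meg3 gene also spans hairpins of microRNAs, which these probes do not measure. RefSeq gives these mature sequences, with the seed (bases 2 to 8) in capitals, and no seed is shared among them.
mmu-miR-1906: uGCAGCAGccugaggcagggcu
mmu-miR-770-5p: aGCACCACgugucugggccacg
mmu-miR-770-3p: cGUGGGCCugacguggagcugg

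Miat was read by 1 probe (A_55_P2128860), the dimmest of the 7. Its spot brightness was 112.5 to 149 scanner units over a local background of 24 to 39. Its normalized log2 intensity was 7.15, 6.94, 7.16 and 7.26 in 3M and 6.88, 6.98, 7.02 and 6.89 in 29M. The groups overlapped through 3M replicate 2 alone. The means were 7.13 ± 0.13 (SD, n = 4) and 6.94 ± 0.07 (SD, n = 4), a change of -0.18 (SE 0.09, 95% confidence interval -0.38 to 0.01) with an adjusted p of 0.325 in limma. Within the 3 slides the change was -0.20, 0.04 and -0.32. The transformation compresses changes near background, so the size of this probe's change is uncertain. Over 18 other settings of the analysis it ran from -0.28 to -0.14.

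Of the genes of 4 listed splicing factors that bind Miat, 0 were called higher and 1 was called lower. This was Celf3, a neuronal RNA-binding protein that regulates splicing. Its normalized log2 intensity was 13.87, 13.12, 12.53 and 13.43 in 3M and 10.87, 10.74, 11.01 and 10.45 in 29M. The groups were far apart, with a change of -2.47 (SE 0.25, adjusted p = 0.00338 in limma). The other 3 had changes between 0.08 and 0.49 and did not pass the test. The difference between Miat and Celf3 changed by 2.29 (two-sided exact permutation p = 0.0286, the smallest possible, and 0.0571 over the 4 pairs), with all arrays of 29M above 3M. This came mostly from the fall of Celf3, read by 1 probe, as Miat itself changed by -0.18 on a probe near background. The outcome of the test was thus set by Celf3 and says nothing of Miat.

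The genes nearest to Miat on chromosome 5 were not called. C130026L21Rik had the largest change (-0.67, adjusted p = 0.154 in limma) with all arrays of 29M below 3M, and Mn1 (-0.11), Cryba4 (-0.19) and Crybb1 (-0.02) were closer to 0. The RefSeq promoter of Miat, at chr5:112228899-112229198 on the minus strand (GRCm38.p6), holds 64.3% G and C with 25 CpG, and 1 match to GGGCGG, on the opposite strand at position -224. The genes nearest to Snhg11 on chromosome 2, which itself gave no value, were not called: Snhg17 (0.03), another host of small nucleolar RNAs, Lbp (0.45), Adig (-0.05) and Arhgap40 (-0.23).

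**Figure D5:**
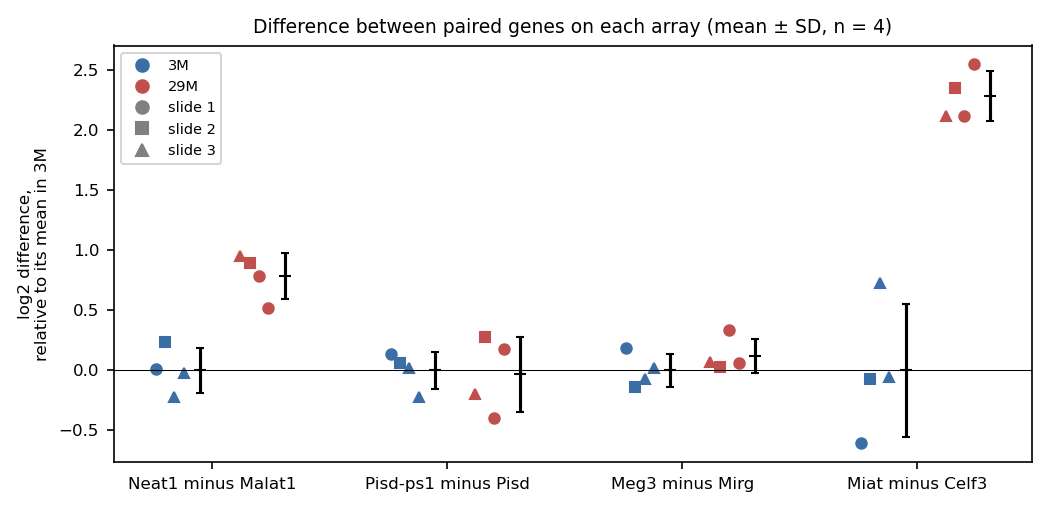
Difference of log2 values between the genes of 4 pairs on each array, centred on the mean of 3M (vertical axis, log2), with 3M in blue, 29M in red, shapes for slides and bars for the mean ± SD of 4 arrays. The 29M arrays lie above all 3M arrays for Neat1 minus Malat1 (0.79 on average) and Miat minus Celf3 (2.29), and overlap with 3M for Pisd-ps1 minus Pisd (-0.03) and Meg3 minus Mirg (0.12).

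The genes whose pattern over the 8 arrays was most like that of each member were found by the root mean square difference of mean-centred log2 values among 15920 genes bright on every array. For Neat1 these were Upk1b (0.10), Capg (0.11) and S100a6 (0.12), against a median of 0.59 over all genes. They had changes of 1.09, 0.94 and 1.14. For Pisd-ps1 they were Prima1 (0.13), Maff (0.13) and Pnlip (0.14; median 0.48). Amy1, Cpne9 and Gcat were nearest to Malat1 (0.06 to 0.07, median 0.28), Hnrnpr, Gin1 and Zfp229 to Meg3 (0.04 to 0.05, median 0.22), and Olfr248, Ptpra and Ube2f to Miat (0.05 each, median 0.20). These are descriptions over arrays that share the age contrast.

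The spread between arrays of 1 group, pooled over both ages, placed the members among the 29168 probes bright on all arrays, whose median SD was 0.15. Miat had the lowest spread (percentile 21.1), on a probe near background where the transformation also compresses the spread. It was followed by Neat1 (33.2), the second Meg3 probe (36.3), the dimmest Meg3 probe (47.7), Pisd-ps1 (52.4), the brightest Meg3 probe (66.2) and Malat1 (66.7).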

How the data were processed

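Per the file headers, the authors deposited, for each of 8 arrays, Agilent Feature Extraction 10.7.3.1 output with linear spot intensities that were not normalized between arrays. The study's methods name another software version and array design, and the headers were followed. The labels give polyA RNA, whereas the methods describe labelling of total RNA. A deposited table of the whole series was not used as expression: all 8 columns equalled the mean local background intensity of an array (tolerance 0.001), 7 of them that of another sample, with medians of 26.7 to 34.8.

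Control spots and outlier spots (127 to 190 per array) were left out. Median spot intensities were variance stabilised to log2 values (least trimmed squares, quantile 0.9, 7 iterations, an own implementation in R 4.3.3). An age term was fitted in limma 3.58.1 with eBayes to the 39408 probes that kept 3 or more arrays in each group. P-values were adjusted by Benjamini-Hochberg over all of them. Both steps were tested on simulated data first. Accessions were matched to RefSeq genes (GRCm38.p6), naming 26055 of 39429 probes (66.1%) in 19751 genes. The array was designed on another build, so no probe or gene coordinates are given, and the coordinates of the printed promoter windows are those of RefSeq. The brightest probe stands for a gene in counts over lists, and every probe of the 6 genes is reported. Named besides these are called genes of each list (the 2 largest changes where none was called), chromosome neighbours (not all are reported here), the 3 most similar genes and the tested pairs. Differences between genes were tested by two-sided exact permutation over 70 regroupings. The comparison of Meg3 with Rian was not run, since Rian had no matched probe. The genes and lists were chosen with earlier results of these data known. The number of arrays limits the precision.

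Sample titles gave the groups and replicate numbers. Same-numbered samples of the groups did not deviate together (correlations of -0.26, 0.22, -0.25 and 0.08), so no pairing was used. Alternatives were other normalizations, filters, slide or replicate blocks, priors, array weights, thresholds and each array left out.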

Additional observations from a re-analysis of the deposited data

How the results depend on the processing

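Under all 19 alternatives 2 probes of the long non-coding RNAs were called higher and 0 lower. Neat1 (1.04 to 1.18, adjusted p in limma 0.000303 to 0.0273) and Pisd-ps1 (0.80 to 0.95, 0.00198 to 0.0488) kept their calls in all 18 fits, and Malat1 (0.18 to 0.39, 0.0978 to 0.653), the second Meg3 probe and Miat kept their direction without a call. Counts over all probes (476 higher, 296 lower) moved more: to 275 and 159 with the replicate number as a block, which changed no call among the 7 probes, to 788 and 570 with array weights, and to 306 and 181 at an adjusted p under 0.05. With single arrays left out they ran from 261 to 792 and from 140 to 593. Without 3M replicate 1 they were 792 and 593, without 3M replicate 2 261 and 140, without 29M replicate 1 266 and 145, and without 29M replicate 2 281 and 175. Without 3M replicate 3 302 were higher, and without 29M replicate 4 150 were lower. Small uncalled values changed sign. The brightest Meg3 probe had 0.010 with 75th percentile scaling and 0.021 when processed signals were variance stabilised (-0.13 to 0.032 with arrays left out), and the third 0.00085 with slide as a fixed block (-0.13 to 0.036). Their difference was 0.046 with 75th percentile scaling and 0.027 with normexp (-0.10 to 0.16 with arrays left out), and that of Pisd-ps1 and Pisd ran from -0.14 to 0.087. The cause was not tested. Of the 7 probes only Miat lay near background, within 112.5 to 149 scanner units, so its fold change is the least certain.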

Other observations

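Other long non-coding RNAs and hosts of small nucleolar RNAs gave no call by their brightest probe. Of 51 listed genes 25 had a matched probe, 0 of these were called, and their median change was 0.06. The largest changes were those of Snhg10 (-0.64, adjusted p = 0.330 in limma) and Mir22hg, the host of a microRNA (0.47, 0.164). A dimmer probe was called lower in 2 of these genes, both antisense RNAs of imprinted clusters, which are named here after their values were seen. For Kcnq1ot1, which silences neighbouring genes on the paternal chromosome, the called probe (A_55_P2196922) had -0.72 (adjusted p = 0.0223 in limma) and the brighter probe -0.23 (0.646). For Airn, the antisense RNA of Igf2r, the called probe (A_51_P418809) had -0.61 (adjusted p = 0.0487 in limma) and was well above background on 4 arrays of 3M and 3 of 29M, while the brighter probe had 0.12 (0.468).

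Besides Neat1, 3 genes of the lncRNA class were called, also named after their values were seen. 2810410L24Rik was higher at 29M (0.74, adjusted p = 0.0687 in limma), and 9530059O14Rik (-0.78, 0.0223) and 9630013A20Rik (-1.42, 0.00950) were lower. Among transcribed pseudogenes Smok4a (0.99) and Speer5-ps1 (0.69) were called higher together with Pisd-ps3 and Pisd-ps1.

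Of 14 groups of 4 values, 1 for each of the 7 probes and both ages, 0 held an array that stood apart by Dixon's criterion, where chance gives about 0.7.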
